A study of Danio rerio with 63 samples.

Results

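The proteasome genes were the 56 of 15418 counted genes whose zebrafish symbol starts with psm, followed by a letter from a to g and a number. They were selected by name, but the family was chosen with earlier results of these data known. The RNA of 3 brain regions of adult zebrafish was counted in 63 libraries: the olfactory bulbs (OB, written BO in the labels), the hypothalamus and the telencephalon (Tel). Each region was represented by 4 pools of cyp19a1b mutant females, 5 pools of mutant males, 6 pools of wild-type (WT) females and 6 pools of WT males. The WT fish were of the AB strain, and the mutants came from a single line in which TALENs had removed bases from an early exon of cyp19a1b, the gene of brain aromatase, and shifted its reading frame. Every library held the RNA of 1 region from 3 pooled fish. The p-values below therefore measure the spread between pools and not between single fish. The numbers of fish used imply that the regions came from the same pools, although the labels do not say so.

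The proteasome breaks down proteins that carry ubiquitin chains. Its barrel-shaped 20S core has outer rings of alpha subunits (psma genes), which gate the entrance, and inner rings of beta subunits (psmb genes), of which psmb6, psmb7 and psmb5 carry the caspase-like, trypsin-like and chymotrypsin-like active sites. The 19S cap adds a ring of ATPases (psmc genes), which unfold the substrate, and non-ATPase subunits (psmd genes), which bind and remove ubiquitin. In mammals, interferon induces the alternative active subunits of psmb9 (in the place of psmb6), psmb10 (in the place of psmb7) and psmb8 (in the place of psmb5), which form the immunoproteasome, the source of many peptides shown on MHC class I, and the cap subunits psme1 and psme2 of the PA28 activator. Zebrafish carry psmb8a, psmb9a and psmb10 and the further beta genes psmb12 and psmb13a, whose RefSeq synonyms place them with the psmb6 and psmb7 types. Assembly chaperones (psmg genes, psmd5, psmd9 and psmd10) help to build the particle, and psmf1 is an inhibitor. Although psmc3ip and psme3ip1 match the naming rule, both code for proteins that interact with a subunit.

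Library totals ran from 21444 to 1033008 unique molecular identifiers (UMIs, 1 per tagged RNA molecule), with a median of 281160. A count of 0 allowed a level of up to 139.9 counts per 1000000 (CPM) in the smallest library and 10.7 CPM at the median total, from 3 counts. These limits cover counting error only. Mutant pools were shallower than WT pools: in OB females the median totals were 79076 in mutants and 275347 in WT fish, and in Tel females 66680 and 353181. A total under 1/3 of the median of its region was found in 7 libraries, 5 of them of mutant females (A1 and B1 of the OB, A1 and A2 of the Tel, A1 of the hypothalamus), with 1 of Tel WT males (B2) and 1 of hypothalamus mutant males (B2). The 3′ tags of cyp19a1b lie outside the deleted part and check no genotype label. In the hypothalamus, cyp19a1b averaged 874 ± 244 CPM in mutant females and 990 ± 131 CPM in WT females (SD, n = 4 and 6), and 551 ± 333 CPM in mutant males and 931 ± 428 CPM in WT males (n = 5 and 6). In the Tel it averaged 1106 ± 299 CPM in mutant females and 1670 ± 344 CPM in WT females. Tel males had 890 ± 498 CPM in mutants and 1412 ± 332 CPM in WT fish. In the OB cyp19a1b was far lower, at 25.5 ± 23.4 CPM in mutant females and 25.5 ± 13.9 CPM in WT females. OB males had 18.5 ± 13.9 CPM in mutants and 22.6 ± 11.5 CPM in WT fish. The OB marker list summed to a median of 502 CPM in the OB, 83.9 in the hypothalamus and 134 in the Tel. Its gene ompa, of olfactory sensory neurons, had medians of 239 CPM in the OB, 21.5 in the hypothalamus and 11.7 in the Tel. In the same order of regions, pax6a had 86.2, 27.3 and 16.7 CPM and dlx5a 108, 27.3 and 91.1 CPM. However, tbx21 of the mitral cells was at 0 in 20 of 21 OB libraries and th of the dopaminergic cells in 14. The neuron marker snap25a had a median of 330 CPM in the OB, 6560 in the hypothalamus and 3659 in the Tel. The neuron list summed to medians of 890, 12171 and 8926 CPM in that order, and the oligodendrocyte list to 113, 3719 and 399 CPM. gfap of radial glia was at 0 in 11 OB libraries. How much tissue other than the bulbs the OB libraries held was not tested.

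Levels are given in CPM after TMM scaling. For single members and nfe2l2a compared between regions, and for sums by role, the libraries of each genotype were scaled together over the regions. All other levels, also those above and the sums of lists, were scaled within each region, and are not on a common scale between regions. The same library can therefore have a different CPM of the same gene in different paragraphs. Because 1 tag near the 3′ end was counted per molecule, CPM was not divided by gene length, and levels of different genes compare numbers of tagged molecules. In the alpha ring, psma3 had the highest mean over the 63 libraries, with 117 CPM at the lowest, 254 at the median and 561 at the highest, and psma6l the lowest mean, with 0, 31.2 and 134 CPM. The beta ring ran between psmb6 (58.3, 273 and 469 CPM at the lowest, median and highest library) and psmb4 (73.0, 155 and 246 CPM), and the ranges of these genes overlapped over most of their width. Core subunits were thus among the most frequent tags of the family, while psmb10, the highest of the alternative beta genes, had a median of 48.7 CPM and psmb11a, a thymus-type beta gene, a median of 0.

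Among the 19S ATPases, psmc4 had a median of 202 CPM (range 102 to 359) and psmc1b, a copy of psmc1, a median of 91.0 CPM (0 to 157). Among the non-ATPase subunits, psmd3, a scaffold subunit of the lid, had 124 CPM (58.3 to 365) and psmd12 42.1 CPM (0 to 76.5). The assembly chaperones had medians of 80.9 CPM for psmg1 and 26.9 CPM for psmg2 of the 20S chaperones, and 40.9 CPM for psmd9 and 13.8 CPM for psmd10 of the 19S chaperones. The activator psme3 had a median of 64.9 CPM, psme2 31.2 CPM and the inhibitor psmf1 53.8 CPM. All 56 members together summed to a median of 5811 CPM in the OB (4296 to 7402), 5663 in the hypothalamus (3857 to 7429) and 6108 in the Tel (4118 to 8076). Each region was scaled on its own here, so that these sums do not rank the regions.

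Not every member could be tested. The filter on low counts kept 50 members in the OB, 47 in the hypothalamus and 45 in the Tel, and 43 in all 3 regions. None of the regions kept psmb11a (10 UMIs in all, in 9 libraries), psmc3ip (39 UMIs in 23 libraries), psmb11b (81 UMIs) and psmd10 (318 UMIs). The alternative beta genes psmb8a, psmb9a, psmb12 and psmb13a and the activator psme1 passed in the OB only. psma6l and psme2 passed in the OB and the hypothalamus, and psmd5 and psmg2 in the Tel and the hypothalamus.

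The alternative core subunits and the PA28 activator were far more frequent in the OB than in the other regions, in mutant and in WT fish. Counts of psmb8a, the alternative chymotrypsin-like subunit, were 56.2, 154 and 269 CPM (lowest, median and highest) in the 9 OB pools of mutants, against 0, 7.96 and 15.2 CPM in their hypothalamus and 0, 0 and 14.9 CPM in their Tel. In WT fish the same gene had 54.4, 200.2 and 312 CPM in the 12 OB pools, against 0, 5.93 and 14.6 CPM in the hypothalamus and 0, 5.14 and 17.7 CPM in the Tel. No OB pool overlapped with a pool of either other region in either genotype. The log2 fold change of psmb8a between OB and Tel was 4.69 ± 0.40 (SE) in mutants and 4.72 ± 0.33 in WT fish (adjusted p = 1.72e-12 and 1.11e-16), and between OB and hypothalamus 4.18 ± 0.33 and 4.84 ± 0.29 (adjusted p = 4.48e-13 and 8.31e-19), by edgeR's quasi-likelihood test and Benjamini-Hochberg adjustment over all genes. Since psmb8a, psmb9a, psmb12, psmb13a and psme1 passed the filter on low counts only through their OB libraries, they had to differ, and their p-values are given as a description. Both comparisons use the same OB libraries. In bulk tissue, fewer cells of a type and less RNA per cell cannot be told apart.

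The alternative caspase-like subunit psmb9a had 87.8, 128 and 199 CPM in the OB of mutants, against 0, 3.18 and 5.30 in the hypothalamus and 0, 5.98 and 12.3 in the Tel. In WT fish psmb9a had 39.5, 111 and 131 CPM in the OB, against 0, 5.33 and 14.4 in the hypothalamus and 0, 5.38 and 9.62 in the Tel. Every OB pool was above every other pool of its genotype. The fold change of psmb9a to Tel was 4.67 ± 0.38 in mutants and 4.22 ± 0.31 in WT fish on the log2 scale (adjusted p = 6.51e-13 and 4.69e-16), and that to the hypothalamus 5.16 ± 0.35 and 4.32 ± 0.27 (adjusted p = 5.94e-15 and 2.8e-18).

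The teleost beta genes psmb12 and psmb13a followed the same order. psmb12 had 98.9, 179.6 and 269 CPM in the OB of mutants, against 0, 0 and 31.9 in the hypothalamus and 0, 3.42 and 17.6 in the Tel, and 76.2, 157 and 235 CPM in the OB of WT fish, against 0, 5.65 and 13.6 in the hypothalamus and 0, 5.38 and 31.3 in the Tel. psmb13a had 85.4, 159 and 276 CPM in the OB of mutants, against 0, 5.07 and 24.4 in the hypothalamus and 0, 0 and 14.9 in the Tel, and 56.2, 117 and 196 CPM in the OB of WT fish, against 0, 1.84 and 7.42 in the hypothalamus and 0, 2.30 and 16.8 in the Tel. Neither gene overlapped between the OB and another region. OB over Tel, the log2 fold change of psmb12 was 4.79 ± 0.51 in mutants and 4.05 ± 0.28 in WT fish, and that of psmb13a 5.16 ± 0.50 and 4.69 ± 0.31 (adjusted p at most 4.15e-10). OB over hypothalamus, psmb12 changed by 4.26 ± 0.42 and 4.60 ± 0.26 and psmb13a by 4.60 ± 0.41 and 5.59 ± 0.30 (adjusted p at most 9.13e-11). In RefSeq (assembly GRCz12tu), psmb8a, psmb13a, psmb12 and psmb9a lie next to each other on chromosome 19 with overlapping gene models, and tap2a, a peptide transporter gene, overlaps psmb13a. The strand used for counting is not given in the sources used here, so that reads of overlapping neighbours may not be separable.

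The PA28 genes showed the same order of regions. psme1 had 123, 165 and 342 CPM in the OB of mutants, against 5.30, 10.2 and 28.6 in the hypothalamus and 0, 8.81 and 24.6 in the Tel, and in WT fish 93.8, 146 and 184 CPM in the OB, against 2.09, 11.4 and 16.1 in the hypothalamus and 0, 12.5 and 50.5 in the Tel. psme2 had 102, 148 and 169 CPM in the OB of mutants, against 13.9, 28.6 and 63.8 in the hypothalamus and 0, 20.5 and 29.9 in the Tel, and in WT fish 48.2, 108 and 144 CPM in the OB, against 16.1, 22.2 and 31.0 in the hypothalamus and 0, 22.4 and 35.96 in the Tel. The OB pools of both genes stood above all others of their genotype, although psme2 was also detected in all hypothalamus pools. OB over Tel, the log2 fold changes were 4.31 ± 0.36 in mutants and 3.31 ± 0.26 in WT fish for psme1 and 2.90 ± 0.29 and 2.18 ± 0.17 for psme2 (adjusted p at most 1.5e-10). OB over hypothalamus, they were 4.01 ± 0.30 and 3.72 ± 0.24 for psme1 and 2.18 ± 0.24 and 2.26 ± 0.15 for psme2 (adjusted p at most 1.15e-09). In RefSeq, psme2 overlaps lsm5.

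psmb10, the alternative trypsin-like subunit, differed less between regions. It had 0, 119.6 and 165 CPM in the OB of mutants, against 20.4, 42.4 and 74.4 in the hypothalamus and 0, 40.6 and 89.2 in the Tel, and in WT fish 48.2, 95.02 and 129 CPM in the OB, against 14.8, 32.8 and 48.1 in the hypothalamus and 0, 52.0 and 89.0 in the Tel. OB and Tel pools overlapped in both genotypes. The log2 fold change of psmb10 between OB and Tel was 1.15 ± 0.32 in mutants and 0.74 ± 0.19 in WT fish (adjusted p = 0.00227 and 0.000823), the WT value falling below the 1.5-fold threshold when libraries were scaled to their totals (0.53). Between OB and hypothalamus it was 1.204 ± 0.30 and 1.48 ± 0.19 (adjusted p = 0.000714 and 3.13e-09).

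A member outside this set moved with it. psma6l, a copy of the alpha subunit gene psma6, had 28.1, 94.1 and 166 CPM in the OB of mutants, against 5.07, 20.4 and 62.2 in the hypothalamus and 0, 24.6 and 70.6 in the Tel, and in WT fish 48.2, 73.5 and 97.5 CPM in the OB, against 6.46, 19.1 and 43.9 in the hypothalamus and 0, 21.8 and 40.8 in the Tel. The regions were apart in WT fish and overlapped in mutants. OB over Tel, the log2 fold change of psma6l was 2.71 ± 0.50 in mutants and 1.84 ± 0.26 in WT fish (adjusted p = 1.17e-05 and 3.91e-08), and OB over hypothalamus 2.22 ± 0.40 and 1.84 ± 0.23 (adjusted p = 8.12e-06 and 2.63e-09). Of the pooled UMIs of psma6l and psma6a, psma6l held 42.6% in the OB, 19.5% in the hypothalamus and 20.4% in the Tel. psme2 and psma6l passed the threshold in all 16 alternative settings in mutants and all 19 in WT fish, in both OB comparisons. In the fit over the mutants, psme2 passed the filter on low counts only through its OB libraries, so that it had to differ there. psma6l, with mutant medians of 20.4 and 24.6 CPM outside the OB, may have done so too. The mutant values of both genes are therefore a description.

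**Figure D1:**
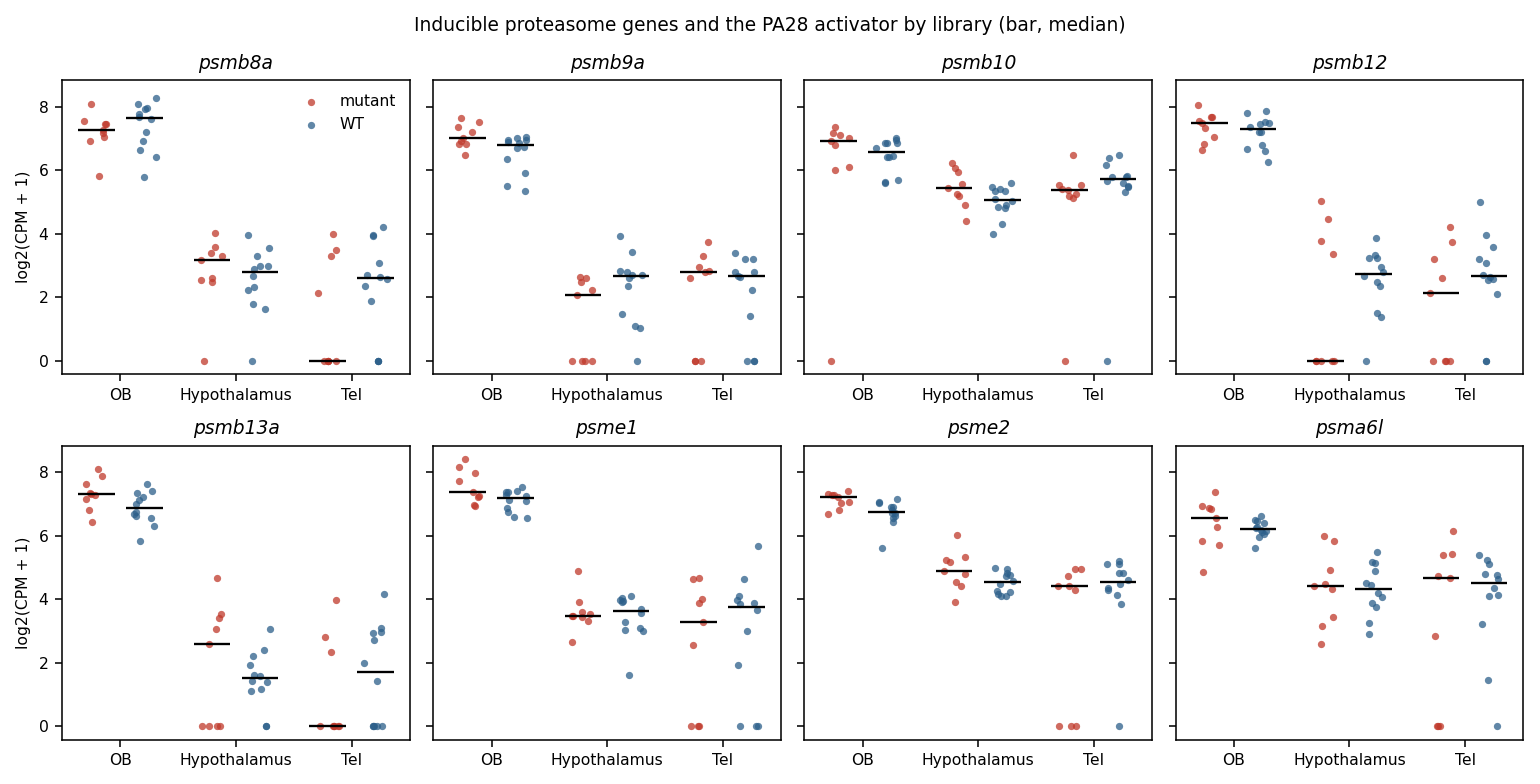
Level of psmb8a, psmb9a, psmb10, psmb12, psmb13a, psme1, psme2 and psma6l, as log2(CPM + 1), in each library of the OB, the hypothalamus and the Tel, with mutant pools in red to the left of WT pools in blue and a bar at each median. OB pools of psmb8a, psmb9a, psmb12, psmb13a, psme1 and psme2 lie above every pool of the other regions of their genotype, while psmb10 overlaps between the OB and the Tel.

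Markers of other cells moved with these genes. The leukocyte and antigen presentation list (18 of 20 genes counted) summed to a median of 10622 CPM in the OB of mutants (7842 to 12311) and 8482 CPM in the OB of WT fish (6903 to 12126). It reached 1787 CPM in the hypothalamus of mutants (1663 to 2441) and 1668 CPM in that of WT fish (1387 to 1905), and 1435 CPM (1167 to 1696) and 1341 CPM (1190 to 1856) in the Tel. In the OB its most frequent genes were cd74a and cd74b, copies of the MHC class II invariant chain gene, with medians of 4173 and 1775 CPM, against 506 and 116 CPM in the hypothalamus and 429 and 91.5 CPM in the Tel, and b2m, the light chain of MHC class I, with 1486 CPM in the OB, 118 in the hypothalamus and 102 in the Tel. mpeg1.1 of macrophages had medians of 76.7 CPM in the OB, 10.3 in the hypothalamus and 6.70 in the Tel, whereas apoc1, also of macrophages and microglia, went the other way, with 83.2, 389.6 and 279 CPM in the same order of regions. Of the 10 list genes tested in WT fish 9 were higher and 1 lower in the OB in each comparison. Of all genes, 58.8% were called against the Tel and 60.5% against the hypothalamus. Genes as low outside the OB as mpeg1.1 could pass the filter on low counts only through the OB, so that they had to differ. p2ry12 of microglia had no UMI in any OB library and csf1ra (macrophages and microglia), lck (T cells) and lyz (granulocytes) had medians of at most 5.24 CPM in every region. The part of leukocyte RNA in the OB levels was not tested.

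The alternative subunits held a large share of the UMIs of their catalytic pairs in the OB. These pairs leave out psmb12 and psmb13a. Over the whole core, the alternative and thymus-type beta genes summed to 655 CPM in the OB of WT fish. Beside them, the alpha ring summed to 1551 CPM and the beta ring to 1383 CPM. The share of psmb8a in the UMIs of psmb8a and psmb5, the subunit whose place it takes, had a median of 51.9% (28.6 to 73.3) in the OB of mutants, against 4.55% (0 to 7.32) in the hypothalamus and 0% (0 to 8.82) in the Tel. In WT fish it was 60.9% (26.3 to 73.7) in the OB, against 3.62% (0 to 11.1) in the hypothalamus and 2.52% (0 to 9.52) in the Tel. OB shares did not overlap with those of the other regions in either genotype.

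For psmb9a against psmb6, the median share was 40% (29.7 to 63.6) in the OB of mutants, against 0.826% in the hypothalamus and 1.89% in the Tel, and 31.0% (15.4 to 36.6) in the OB of WT fish, against 1.60% and 1.45% in the same order of regions. For psmb10 against psmb7 it was 38.9% (0 to 60.0) in the OB of mutants, against 19.05% (7.41 to 35) in the hypothalamus and 15.7% (0 to 28) in the Tel, and 38.3% (23.4 to 48.2) in the OB of WT fish, against 13.3% (8.53 to 22.4) and 19.4% (0 to 30.9). The psmb9a shares were apart and the psmb10 shares overlapped between the OB and the Tel. These shares were not tested, since the fold changes of their genes were. Several ends of the mutant OB ranges rest on few UMIs. The psmb10 share of 0% came from 0 psmb10 and 3 psmb7 UMIs, and the psmb9a share of 63.6% from 7 psmb9a and 4 psmb6 UMIs. For psmb8a, the 28.6% came from 2 psmb8a and 5 psmb5 UMIs and the 73.3% from 11 and 4.

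**Figure D2:**
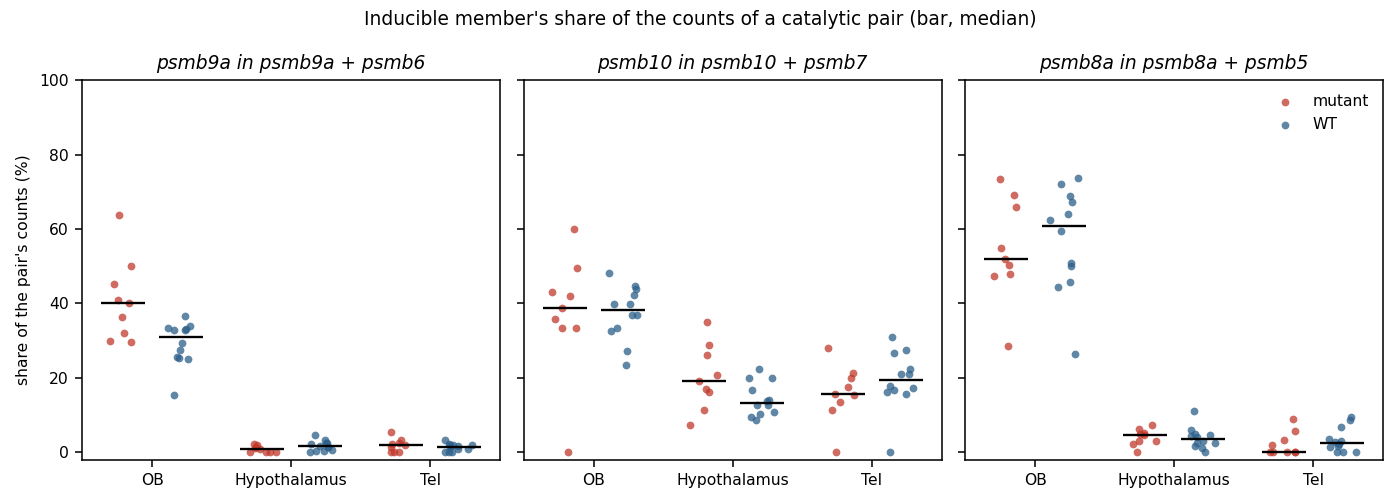
Share in percent of psmb8a in psmb8a and psmb5 UMIs, of psmb9a in psmb9a and psmb6 UMIs and of psmb10 in psmb10 and psmb7 UMIs, 1 point per library, by region, with mutant pools in red to the left of WT pools in blue and a bar at each median. The psmb8a shares of the OB have medians of 51.9% in mutants and 60.9% in WT fish, and all lie above those of the hypothalamus and the Tel.

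The constitutive active subunits did not follow that order. psmb5 had 43.9, 140.4 and 174 CPM in the OB of mutants, against 133, 156 and 229.9 in the hypothalamus and 148, 176 and 264 in the Tel, and in WT fish 94.8, 122 and 152 CPM in the OB, against 117, 156 and 204 in the hypothalamus and 137, 191 and 249.6 in the Tel. The groups overlapped. OB over Tel, psmb5 fell by 0.59 ± 0.20 on the log2 scale in mutants and by 0.66 ± 0.11 in WT fish (adjusted p = 0.0115 and 1.3e-06). The mutant call was kept in 10 of 16 alternatives. It was lost, at falls of 0.48 to 0.58, without mutant females A2 or C1 or mutant males B2 or C1, under DESeq2 and with DESeq2's size factors. The WT call was kept in 17 of 19.

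Against the Tel, the other constitutive active subunits had smaller differences than psmb5. None of them was past the fold threshold with TMM. psmb6 had a log2 fold change between OB and Tel of -0.40 ± 0.23 in mutants and -0.52 ± 0.14 in WT fish (adjusted p = 0.131 and 0.00116), and psmb7 of -0.57 ± 0.22 and -0.49 ± 0.13 (adjusted p = 0.0302 and 0.000667). The OB medians of psmb6 were 198 CPM in mutants and 232 CPM in WT fish, against 274 and 331 CPM in the Tel. Between OB and hypothalamus the values were -0.50 in mutants and -0.34 in WT fish for psmb5, -0.45 and -0.39 for psmb6 and -0.36 and -0.40 for psmb7. All of these values were negative under every alternative tried. With library totals psmb6 and psmb7 passed against the Tel in WT fish, at -0.74 and -0.72. In mutants psmb7 passed against the Tel in 6 of 16 alternatives and psmb6 in 2.

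Over the whole family, the OB differed from the Tel at 19 of 48 members in mutants (15 higher and 4 lower, 39.6%) and at 14 of 52 in WT fish (10 higher and 4 lower, 26.9%). Of all genes tested, 55.5% passed in mutants and 58.8% in WT fish, so that the members' share was below the background. From the hypothalamus, the OB differed at 15 of 48 members in mutants (all higher, 31.3%) and at 13 of 52 in WT fish (12 higher and 1 lower, 25%), beside 57.3% and 60.5% of all genes. psmb8a, psmb9a, psmb12, psmb13a and psme1 had to differ, as stated, and are 5 of each count. In mutants psme2 had to differ too, and psma6l may have, for the same reason. Higher in the OB in both genotypes and in both comparisons were 9 members: psmb8a, psmb9a, psmb10, psmb12, psmb13a, psme1, psme2, psma6l and psmd11a. The pools of OB and Tel were apart for 6 members in mutants and 8 in WT fish (24.8% and 24.4% of all genes), and those of OB and hypothalamus for 7 and 11 (27.6% and 30.6%).

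These splits depended on the scaling, since the median of all genes moved with it. For OB against Tel in WT fish, 10 members were higher and 4 lower with TMM, 16 and 1 with DESeq2's size factors (median of all genes moved by 0.19) and 7 and 11 with library totals (moved by -0.22), and in mutants 15 and 4, 15 and 2 (0.08), and 8 and 17 (-0.39). For OB against hypothalamus in WT fish the members split as 12 and 1 with TMM, 19 and 0 with size factors (0.18) and 9 and 6 with totals (-0.22), and in mutants as 15 and 0, 17 and 0 (0.05), and 9 and 11 (-0.37). The median log2 fold change of the members with TMM, OB over Tel, was 0.02 in mutants and -0.04 in WT fish, beside -0.05 and -0.08 over all genes, and OB over hypothalamus 0.14 and 0.09, beside -0.08 and -0.10. With library totals the medians of the members were -0.36 and -0.26 over the Tel and -0.21 and -0.12 over the hypothalamus, and with size factors 0.10 and 0.15 over the Tel and 0.20 and 0.27 over the hypothalamus.

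By role, the alpha ring had a median log2 fold change, OB over Tel, of 0.61 in mutants and 0.43 in WT fish, with 8 of 9 genes above 0 in each. 5 of the 9 passed in mutants, of which psma1 (0.61), psma8 (0.63), psma4 (0.73) and psma5 (0.76) were called beside psma6l, and psma6l alone in WT fish. The mutant share of the ring was close to that of all genes (55.5%). In the settings tried, these calls of psma1, psma8, psma4 and psma5 were kept in 10, 11, 12 and 14 of 16. They were lost without mutant males A1 for psma1 (0.58), psma8 (0.55) and psma4 (0.61), without mutant females B1 for psma1 (0.51) and psma4 (0.62), without mutant females C1 for psma1 (0.50), without mutant females A2 for psma8 (0.58) and without mutant males C2 for psma1 (0.56) and psma8 (0.51). With library totals all 4 calls were lost, at 0.24 for psma1, 0.27 for psma8, 0.38 for psma4 and 0.38 for psma5, and without a filter on low counts too. The beta ring had medians of -0.20 and -0.12, the 19S ATPases of -0.22 and -0.30 and the 19S non-ATPase subunits of -0.27 and -0.29, in mutants and in WT fish. The summed level of the alpha ring in WT fish was 1551 CPM in the OB, 1129 in the hypothalamus and 1171 in the Tel, and that of the ATPases 859, 957 and 973 CPM.

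Among single members outside the core, psmc6, an ATPase, fell in the OB against the Tel by 0.80 ± 0.24 on the log2 scale in mutants (adjusted p = 0.00569), in all 16 alternatives, and psme3, a nuclear activator, had a value of -0.78 in WT fish and was called in all 19. psmd3 fell by 0.66 ± 0.21 in mutants (adjusted p = 0.00636), a call lost under DESeq2 (-0.57) and without the low-total libraries (-0.36). In WT fish, psmd5 (-0.76) and psmg3 (-0.60) were lower and psme4b (0.78) higher, the call of psmg3 being lost in 6 of 19 settings, among them without WT females A1, WT females A2 or WT males A2. The calls of psmd5 and psme4b were each kept in 17 of 19, that of psme4b being lost, among others, without WT males B2 (0.68, adjusted p = 0.0520). psmd6, a lid subunit, fell against the hypothalamus in WT fish by 0.73 ± 0.13 (adjusted p = 2.55e-06), a call kept in 17 of 19 settings.

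The lid gene psmd11 has 2 copies, of which psmd11a was called in the OB. It had 68.3, 101 and 154 CPM in the OB of mutants, against 35.5, 59.3 and 79.5 in the hypothalamus and 34.2, 61.7 and 115 in the Tel, and 70.8, 99.0 and 141 CPM in the OB of WT fish, against 23.8, 58.4 and 68.0 in the hypothalamus and 39.3, 64.6 and 93.3 in the Tel. The WT pools of OB and hypothalamus did not overlap, the others did. Its log2 fold change was 0.75 in mutants and 0.81 in WT fish over the hypothalamus, the WT call being kept in all 19 alternatives, and 0.67 and 0.59 over the Tel. The WT call against the Tel was lost, at 0.53 to 0.58, without WT females B2 or C1 or WT males A1, A2 or B1, and the mutant call, at 0.50 to 0.68, without mutant females B1 or C1 or mutant males A1 or C2. Library totals lowered psmd11a to 0.29 in mutants and 0.39 in WT fish, and no filter to 0.51 and 0.57, below the threshold in each, and thinned counts gave 0.58 in mutants (adjusted p = 0.0585). The call in mutants over the hypothalamus was lost with library totals (0.39) and without a filter (0.54). psmd11b had values of -0.65 ± 0.30 in mutants and -0.51 ± 0.17 in WT fish over the Tel, neither called. Of the pooled UMIs of both copies, psmd11b held 39.2% in the OB, 53.7% in the hypothalamus and 58.6% in the Tel.

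**Figure D3:**
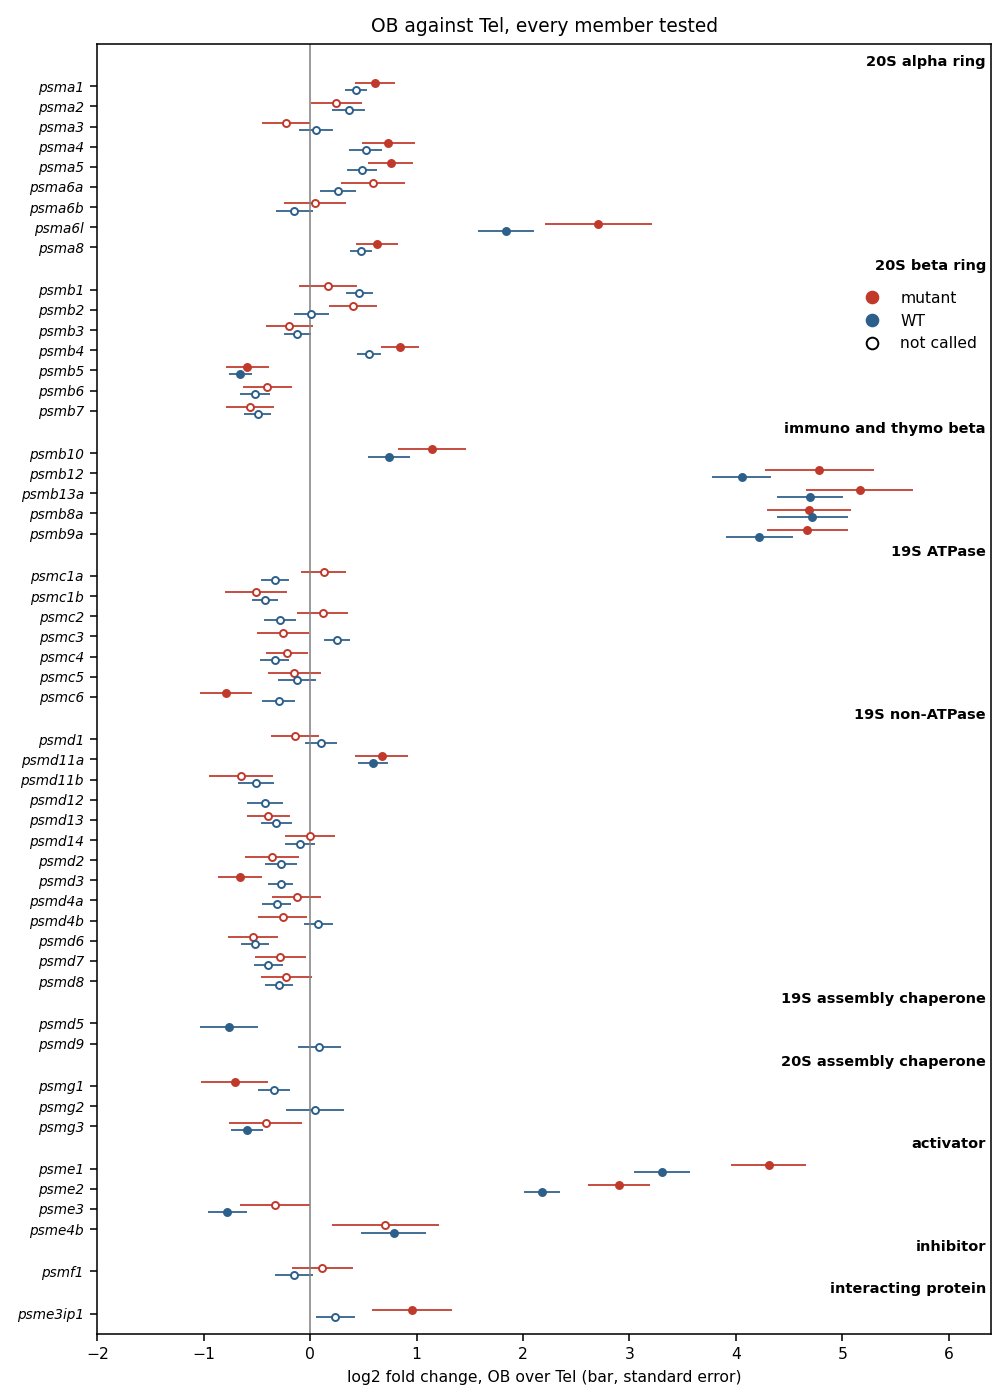
log2 fold change of each tested member between OB and Tel, with its SE, ordered by role, in mutants (red) and in WT fish (blue), where open symbols did not pass the threshold. psmb8a, psmb9a, psmb12, psmb13a and psme1 lie between 3.31 and 5.16, psme2 and psma6l between 1.84 and 2.90, and the other members closer to 0.

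Between hypothalamus and Tel few members passed. In WT fish 1 of 52 members passed, beside 14.5% of all genes, and 12 (23.1%) had an unadjusted p under 0.05, beside 30.1% of all genes. It was psmb10, which fell by 0.74 ± 0.20 on the log2 scale (adjusted p = 0.00563), in all 19 alternatives, with 32.8 CPM at the median of the hypothalamus and 52.0 CPM at that of the Tel and overlapping pools. In mutants edgeR's quasi-likelihood test called 0 of 48, beside 8.72% of all genes, with psmc6 the only member at an unadjusted p under 0.05, beside 19.5% of all genes, and DESeq2 called 0 as well. The median log2 fold change of the members was -0.12 in mutants and -0.12 in WT fish, beside 0.03 and 0.02 over all genes.

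The study set mutants against WT fish, by sex, to ask which genes change with the cyp19a1b mutation in each region. Of the proteasome genes, 1 passed in 1 of the 6 comparisons: psme2 in the hypothalamus of females. It had 66.3, 36.2, 40.9 and 39.97 CPM (6 to 14 UMIs) in the 4 pools of mutant females, against 19.9, 19.4, 29.3, 17.3, 24.6 and 17.4 CPM in the 6 pools of WT females. Every mutant pool was above every WT pool. The log2 fold change was 1.02 ± 0.29 (adjusted p = 0.0446, edgeR's quasi-likelihood test and Benjamini-Hochberg adjustment), 1 of 47 members beside 3.56% of all genes. Among the 47 members psmd6 was apart too, with every mutant pool below every WT pool, and 5.99% of all genes were apart. In males psme2 had 14.1, 28.7, 26.9, 23.4 and 21.2 CPM in mutants, against 23.3, 32.4, 28.5, 18.1, 27.7 and 33.5 CPM in WT fish, and the groups overlapped. The difference between the sexes had an interaction value of 1.28 with an adjusted p of 0.127.

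The call of psme2 rested on nearly all of its pools. It was kept in 5 of 19 alternatives and lost without any of 9 of the 10 pools in turn. Without mutant females A1, A2, B1 or C1 the adjusted p was 0.170, 0.0775, 0.131 and 0.121, and without WT females A1, A2, B2, C1 or C2 0.0771, 0.0857, 0.0905, 0.0515 and 0.101, while without WT females B1 it was 0.0289. It was also lost under DESeq2 (adjusted p = 0.0864), without a filter on low counts (0.281), without the low-total libraries (0.179) and with a replicate block (0.107). In the same libraries b2m averaged 199 ± 49.1 CPM in mutant females and 109.9 ± 20.4 CPM in WT females (SD, n = 4 and 6), and the leukocyte list had a median of 2059 CPM in mutant females (1787 to 2265) and 1668 CPM in WT females (1387 to 1827). Of its antigen presentation genes, b2ml averaged 546 CPM in mutant females and 426 CPM in WT females, and cd74a 609 and 492 CPM. Its genes coro1a, lcp1 and mpeg1.1 hardly differed, with means of 33.0, 28.9 and 8.77 CPM in mutant females. In WT females these averaged 32.3, 29.6 and 8.87 CPM. The radial glia list had a median of 9856 CPM in mutant females (6884 to 20003) and 22717 CPM in WT females (15890 to 32831), with 1 of 6 genes called, lower in mutants. The part of these cells in the psme2 difference was not tested.

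In the OB of females 0 of 50 members passed by edgeR, beside 2.57% of all genes, with 5 (10%) at an unadjusted p under 0.05, beside 12.4% of all genes, and 0 calls by DESeq2. The members with the lowest p were psme1, with 243.5, 117.9, 291.7 and 241.6 CPM in mutants, against 147.7, 106.5, 157.4, 89.9, 141.1 and 101.9 CPM in WT fish, and psmb6, with 108.2, 157.3, 58.3 and 158.0 CPM, against 174.0, 207.3, 228.6, 204.3, 230.5 and 207.6 CPM. The groups overlapped for psme1 and not for psmb6. Their log2 fold changes of 0.78 ± 0.26 and -0.70 ± 0.27 had adjusted p of 0.147 and 0.223. Pools of psmd4a were apart too (0.50 ± 0.24, adjusted p = 0.457), so that 2 members were apart, beside 4.80% of all genes. The leukocyte list had a median of 10958 CPM in mutant females (7842 to 12311) and 7924 CPM in WT females (7099 to 10253), with overlapping ranges. Its gene cd74a averaged 4734 CPM in mutant females and 3937 CPM in WT females, and b2m 1669 and 1286 CPM. However, lcp1 averaged 104.5 CPM in mutant females and 122 CPM in WT females, mpeg1.1 73.8 and 75.8 CPM and coro1a 76.6 and 72.5 CPM. The part of leukocyte RNA in the psme1 levels was not tested.

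In the OB of males 0 of 50 members passed by edgeR and by DESeq2, beside 0.0221% of all genes, and 1 (2%) had an unadjusted p under 0.05, beside 9.58% of all genes. The lowest p belonged to psme4b, which codes for the PA200 activator, with 138.4, 128.4, 71.6, 17.2 and 37.0 CPM in mutants, against 48.7, 58.3, 57.6, 61.6, 17.5 and 23.8 CPM in WT fish (log2 fold change 0.88 ± 0.40, adjusted p = 0.493), and to psmd12, with 29.1, 37.0, 8.9, 12.9 and 37.0 CPM, against 29.4, 46.7, 42.1, 34.1, 50.4 and 59.5 CPM (-0.62 ± 0.32, adjusted p = 0.542). In both the groups overlapped, and the mutant pools of psme4b were spread from below to above the WT pools.

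In the Tel of females 0 of 45 members passed by edgeR and by DESeq2, beside 2.46% of all genes, and 6 (13.3%) had an unadjusted p under 0.05, beside 12.5% of all genes. psmb4, a beta ring subunit, had 75.2, 73.0, 122.5 and 89.2 CPM in mutants, against 127.3, 164.0, 129.5, 173.5, 190.0 and 178.7 CPM in WT fish, with no overlap, and a log2 fold change of -0.77 ± 0.23 (adjusted p = 0.0801). psmb4 was the 1 member of 45 whose pools were apart, beside 6.31% of all genes. With the pool letter as a term the adjusted p of psmb4 was 0.0473. psmd5, a 19S assembly chaperone, had 0, 48.6, 84.8 and 78.7 CPM in mutants, against 46.9, 26.6, 16.2, 23.5, 29.2 and 38.3 CPM in WT fish (1.18 ± 0.44, adjusted p = 0.179). The 0 stood in mutant females A1, whose total was the smallest of the series, and the other 3 mutant pools were above all WT pools.

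In the Tel of males 0 of 45 members passed by edgeR and by DESeq2, beside 0.0225% of all genes, with 4 (8.89%) at an unadjusted p under 0.05, beside 9.62% of all genes. psme4b had 148.5, 118.6, 79.4, 16.1 and 25.8 CPM in mutants, against 47.5, 37.0, 47.3, 0, 0 and 20.5 CPM in WT fish (1.42 ± 0.50, adjusted p = 0.347). psmg1, a 20S assembly chaperone, had 169.7, 87.4, 108.7, 160.8 and 219.6 CPM, against 68.5, 81.3, 83.7, 73.5, 136.3 and 110.1 CPM (0.66 ± 0.23, adjusted p = 0.347). Both genes overlapped between the groups.

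In the hypothalamus of males 0 of 47 members passed by edgeR and by DESeq2, beside 1.93% of all genes, with 5 (10.6%) at an unadjusted p under 0.05, beside 14.9% of all genes. psmd6 had 117.1, 105.2, 107.5, 171.9 and 132.2 CPM in mutants, against 198.3, 111.3, 191.1, 191.5, 223.2 and 229.9 CPM in WT fish (-0.58 ± 0.19, adjusted p = 0.118). 1 WT pool, A2, lay among the mutants, and the adjusted p of psmd6 was 0.0309 without it, 0.0485 without mutant males C1 and 0.0371 with the pool letter as a term. psmd11b had 107.8, 89.2, 98.5, 97.6 and 105.8 CPM in mutants, against 73.9, 54.6, 64.5, 77.7, 58.8 and 57.8 CPM in WT fish, with no overlap (0.62 ± 0.20, adjusted p = 0.120). It was the 1 member of 47 whose pools were apart, beside 2.99% of all genes.

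The study, which used limma on rlog values with filters of its own, names psmd3 among genes dysregulated in mutant females only. By edgeR, psmd3 did not pass in any genotype comparison. With limma on rlog values and the filter used here, it did not pass either. In the hypothalamus of females it had 254.2, 243.1, 204.3 and 139.9 CPM in mutants, against 120.7, 135.6, 122.9, 153.5, 152.1 and 120.4 CPM in WT fish. 3 mutant pools were above all WT pools and 1 was among them. The log2 fold change was 0.61 ± 0.21 (adjusted p = 0.134), with an adjusted p of 0.0405 under scaling to library totals and 0.0458 without mutant females C1. In the Tel of females psmd3 had 338.5, 364.9, 169.6 and 215.2 CPM in mutants, against 167.5, 141.8, 129.5, 220.5, 152.0 and 114.9 CPM in WT fish (0.68 ± 0.26, adjusted p = 0.206). In males its value was 0.22 ± 0.20 in the hypothalamus and 0.24 ± 0.22 in the Tel.

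Across the family, the median log2 fold change between mutants and WT fish was -0.16 in OB females, 0.00 in hypothalamus females and 0.06 in Tel females, beside 0.01, 0.04 and 0.00 over all genes. In males it was 0.03 in the OB, 0.13 in the hypothalamus and 0.03 in the Tel, beside 0.00, 0.01 and 0.03. Scaling to library totals moved the median of all genes by 0.18 in Tel females and 0.16 in hypothalamus females and by at most 0.1 in the other genotype comparisons.

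**Figure D4:**
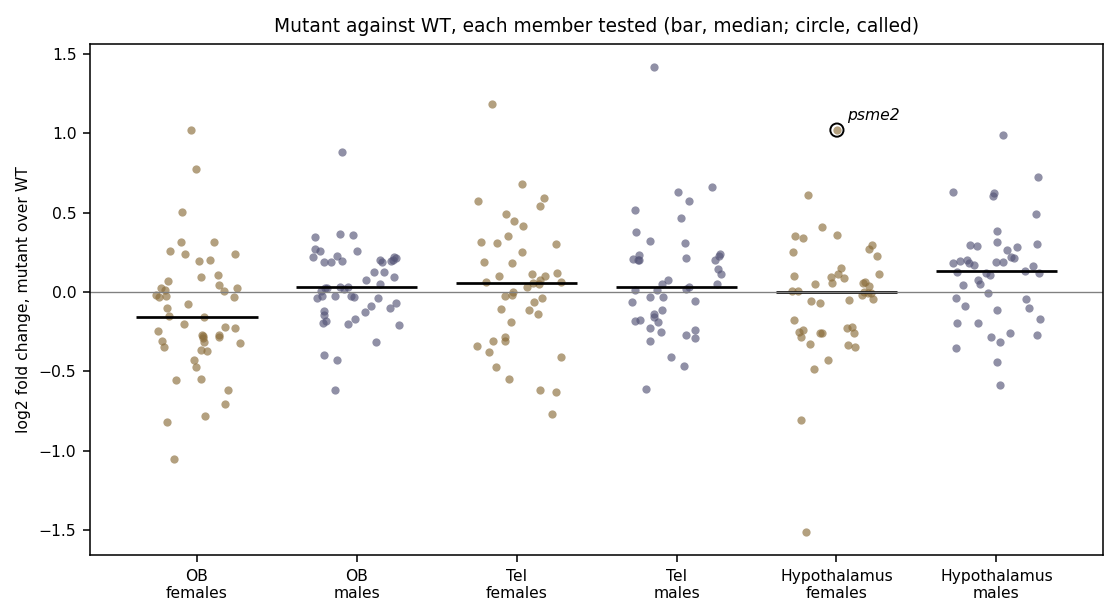
log2 fold change of each tested member between mutants and WT fish in the 6 comparisons of region and sex, with a bar at the median of the members. The medians lie between -0.16 in OB females and 0.13 in hypothalamus males, and the only circled point past the threshold is psme2 in hypothalamus females, at 1.02.

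No member passed between males and females by edgeR, in mutants or in WT fish. In mutants, where 2.23%, 2.38% and 1.19% of all genes were called in the OB, hypothalamus and Tel, 7 (14%), 4 (8.51%) and 5 (11.1%) members had an unadjusted p under 0.05, beside 15.7%, 9.85% and 8.36% of all genes, and DESeq2 called 3 in the OB and 0 in the other regions. In WT fish, where 0.0885%, 0.0155% and 0.0451% of all genes were called, the members at an unadjusted p under 0.05 were 4 (8%), 1 (2.13%) and 0, beside 3.65%, 3.73% and 1.80% of all genes, and DESeq2 called 0 in every region. The interaction of genotype and sex called 0 members, beside 0.177%, 2.04% and 0.496% of all genes, with 4 (8%), 2 (4.26%) and 2 (4.44%) at an unadjusted p under 0.05, beside 9.60%, 9.33% and 7.41% of all genes, and DESeq2 called 1, in the hypothalamus.

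That member was psma6l. In the hypothalamus it had 22.1, 5.2, 10.2 and 8.6 CPM in mutant females, against 22.9, 17.2, 37.1, 30.7, 47.0 and 18.7 CPM in WT females, and 56.2, 19.1, 62.7, 31.2 and 21.2 CPM in mutant males, against 13.6, 38.4, 23.6, 9.0, 6.9 and 15.0 CPM in WT males. The order of the genotypes was opposite in the sexes, and the groups overlapped in both. The interaction of psma6l was -2.50 (adjusted p = 0.0733), -2.56 under DESeq2 (0.0415) and -2.81 without WT males A2 (0.0219).

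The pools carried a further division. The titles give each pool a letter, A, B or C, whose meaning the labels do not state. Within groups of sex and genotype, members passed the test for the letter at 3 of 50 in the OB (6%, beside 5.75% of all genes), 13 of 47 in the hypothalamus (27.7%, beside 19%) and 5 of 45 in the Tel (11.1%, beside 9.89%), with no fold threshold. In the OB and the Tel the share called was close to that of all genes. In fitted levels, which do not need the pools to be apart, letter C was above both others at all 3 members of the OB. For psmb10 the difference from B was only 0.03 on the log2 scale. Fitted levels were also highest in C at 12 of 13 in the hypothalamus and 4 of 5 in the Tel. The exception in the hypothalamus was psme4b, where C was lower by 1.01 than A and by 0.92 than B on the log2 scale. Leaving out single pools changed these counts to between 1 and 4 in the OB, 2 and 16 in the hypothalamus and 1 and 7 in the Tel, the lowest without mutant females C1 in the hypothalamus and without mutant females C1 or WT males C1 in the Tel.

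psma3 had the lowest adjusted p of any member for the letter, with 254, 391 and 497 CPM (lowest, median and highest) in the C pools of the hypothalamus, against 117, 192 and 292 CPM in A and 208, 244 and 287 CPM in B (0.79 over A and 0.49 over B, adjusted p = 0.00596). In the Tel it had 267, 405 and 561 CPM in C, against 207, 247 and 349.99 CPM in A and 123, 284 and 375 CPM in B (adjusted p = 0.0168). The ranges overlapped. psmc6 in the hypothalamus had 135, 244 and 331 CPM in C, against 77.4, 145 and 167 in A and 118, 159.99 and 179 in B (adjusted p = 0.00969). psmb10 in the OB had 83.1, 103 and 139 CPM in C, against 0, 47.5 and 74.1 in A and 80.2, 104 and 119.5 in B (0.96 over A and 0.03 over B, adjusted p = 0.00661). There it was A that was low.

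psma2 and psmc5 passed in all 3 regions. psma2 had 125, 202 and 251 CPM in the C pools of the OB, against 105, 136 and 162 CPM in A and 71.6, 142 and 163 CPM in B (adjusted p = 0.0444), and 132, 185 and 278 CPM in the C pools of the Tel, against 94.9, 121 and 150.4 in A and 73.5, 124 and 207 in B (adjusted p = 0.0244). psmc5 was higher in C than in A by 0.71 in the OB, 0.67 in the hypothalamus and 0.61 in the Tel on the log2 scale (adjusted p = 0.0489, 0.0104 and 0.0478). Fitted levels were higher in C than in A at 44 of 50 tested members in the OB. The counts were 42 of 47 in the hypothalamus and 36 of 45 in the Tel. In that order of regions the medians were 0.31, 0.34 and 0.29, against medians of all genes between -0.02 and 0. Against B, 36 of 50, 36 of 47 and 38 of 45 members were higher in C. The medians of C over B were 0.12, 0.22 and 0.28, beside 0.00 over all genes in each region.

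The members summed to a median of 6579 CPM in the C pools of the OB, against 5298 in A and 5799 in B, to 6405 CPM in C of the hypothalamus, against 4836 and 5504, and to 7115 CPM in C of the Tel, against 5667 and 5812. In 10 of the 12 groups of region, sex and genotype every C pool was above every A and B pool, the exceptions being the WT males of the OB and of the hypothalamus. Median library totals were 257363 UMIs in C of the OB, against 252169 in A and 359877 in B. Red blood cell markers had a median of 8055 CPM in C of the hypothalamus, against 3103 in A and 5449 in B, and of 905 CPM in C of the OB, against 452 and 886. Neuron markers had 11216 CPM in C of the hypothalamus, against 11642 and 12888. Oligodendrocyte markers had 4174 CPM in C of the hypothalamus, against 2877 in A and 3287 in B. Radial glia markers had 13223 CPM in C of the OB, against 7544 in A and 3416 in B. Their part in the letter difference was not tested. Each of the 12 groups held all 3 letters, but not in equal numbers. The mutant female groups held 1 C pool each and the others 2. Mutant females also had no pool B2, and mutant males had no pool A2. The letters were therefore partly tied to the comparisons of sex and genotype.

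**Figure D5:**
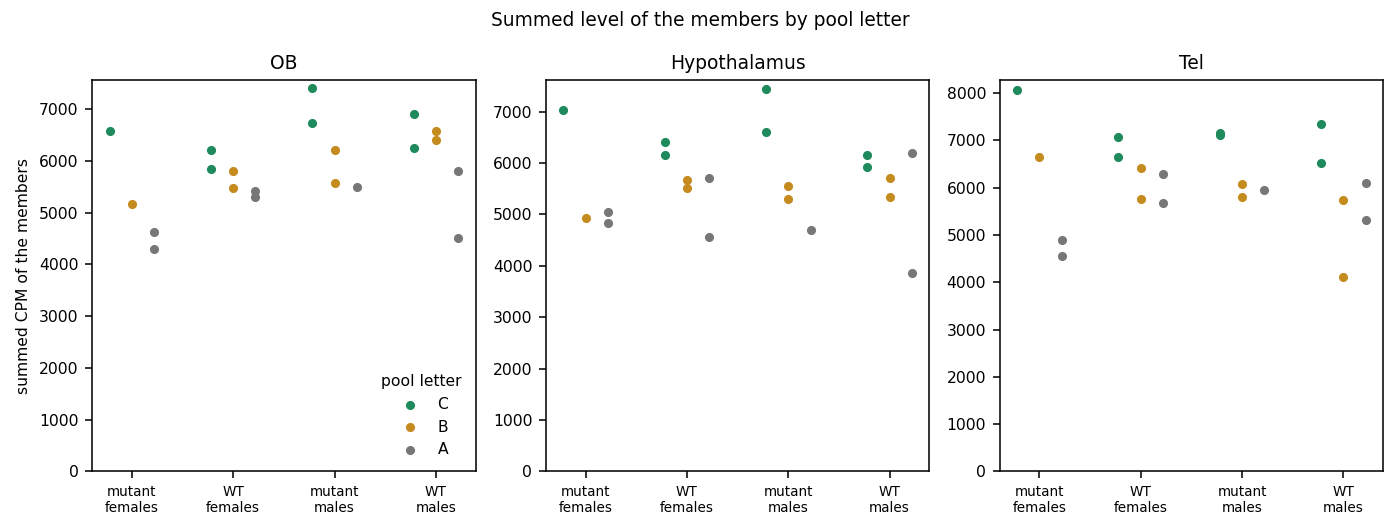
Summed CPM of the 56 members in each library, by pool letter (C, B and A from left to right) within each group of sex and genotype, with 1 panel each for the OB, the hypothalamus and the Tel. C pools have medians of 6579, 6405 and 7115 CPM, and lie above all A and B pools of their group in 10 of the 12 groups.

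The partners of the proteasome (ubiquitin genes, shuttling and docking factors, and regulators of proteasome genes) were read from a list of 38 symbols, of which 31 were in the table and 23, 23 and 22 were tested in the OB, hypothalamus and Tel. zfand5b, a copy of the gene whose mammalian product binds the 26S proteasome and activates it, was lower in mutant females in every region. In the OB it had 216.4, 95.5, 116.7 and 130.1 CPM in mutant females, against 475, 688 and 1038 CPM (lowest, median and highest) in WT females. In the hypothalamus it had 176.8, 201.7, 214.5 and 254.1 CPM in mutant females, against 529, 786 and 1032 CPM in WT females, and in the Tel 112.8, 170.3, 216.7 and 278.1 CPM, against 734, 957 and 1296 CPM. No pool overlapped. zfand5b fell by 2.51 ± 0.29, 1.92 ± 0.25 and 2.25 ± 0.30 on the log2 scale in the OB, hypothalamus and Tel (adjusted p = 1.77e-05, 5.84e-05 and 0.000226), in all 20 alternatives of each.

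In males zfand5b differed less, with medians of 388 CPM in mutants and 573 CPM in WT fish in the OB, 529 and 579 CPM in the hypothalamus and 543 and 890 CPM in the Tel. None of these passed. Mutant males were above mutant females by 1.66, 1.22 and 1.41 on the log2 scale in the OB, hypothalamus and Tel (adjusted p = 0.00597, 0.00475 and 0.0134). The OB value was 1.501 (0.0714) without mutant females A2, and the Tel value 1.30 (0.0508), 1.36 (0.0675) and 1.47 (0.0659) without mutant females A1, A2 or B1. Over all settings the Tel call was kept in 15 of 19 alternatives, with a lowest value of 1.01. The genotype difference itself differed between the sexes by -1.61 in the hypothalamus (adjusted p = 0.00427, kept in all 31 alternatives) and by -2.04 in the OB (0.0179), but not past the threshold in the Tel (-1.55). The OB interaction of zfand5b was lost without mutant females A2 (-1.88, 0.0971) or B1 (-2.01, 0.0580), without mutant males A1 (-1.93, 0.0687) or B1 (-1.91, 0.0686) and with limma on rlog values (-1.31, 0.140).

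Between regions, nfe2l2a, a copy of the stress-response factor Nrf2, stood with the alternative subunits. It had 149, 231 and 586 CPM in the OB of mutants, against 0, 9.77 and 35.8 in the hypothalamus and 0, 6.17 and 35.3 in the Tel, and 81.7, 261 and 428 CPM in the OB of WT fish, against 3.65, 12.1 and 26.0 in the hypothalamus and 0, 9.05 and 21.8 in the Tel. No OB pool overlapped with another region of its genotype. Its log2 fold change OB over Tel was 5.44 in mutants and 4.59 in WT fish, and OB over hypothalamus 4.61 and 4.45, called in every alternative. Like psmb8a, nfe2l2a passed the filter on low counts only through its OB libraries, so that it had to differ, and these values are a description. Against the Tel, 7 of 23 partners passed in mutants (5 higher, 2 lower) and 8 of 24 in WT fish (6 higher, 2 lower), beside 55.5% and 58.8% of all genes. In WT fish rps27a (1.58), a ubiquitin fusion gene, was higher in the OB than in the Tel, and uchl5 (-1.18), a deubiquitinase of the 19S cap, and the polyubiquitin gene ubc (-0.60) were lower. In the hypothalamus of males, rps27a fell by 0.72 on the log2 scale in mutants (adjusted p = 0.0238), where 1.93% of all genes were called. Of the partners and COP9 genes, only zfand5b and nfe2l2a were rerun under other settings.

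The COP9 signalosome, a complex built like the 19S lid, was counted at 9 of 10 genes. OB against Tel, 1 of 8 was lower in mutants (cops6) and 4 of 9 in WT fish (cops3, cops4, cops5 and cops6), none higher, beside 55.5% and 58.8% of all genes called in either direction. OB against hypothalamus, cops6 was lower in mutants and cops3, cops4 and cops5 in WT fish. Between genotypes, 1 of 9 passed in the hypothalamus of females, cops4, which fell by 1.42 on the log2 scale (adjusted p = 0.0431), and 1 of 9 in that of males, gps1, which was higher by 0.63 (adjusted p = 0.0342), beside 3.56% and 1.93% of all genes. The summed level of the list was 1173 CPM in the C pools of the hypothalamus, against 807 in A and 903 in B, the same order of letters as for the proteasome genes.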

How the data were processed

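RNA of 63 libraries, each of 3 pooled adult zebrafish, was measured by 3′ barcoded sequencing (BRB-seq). Per the study's methods, the first read held 6 barcode bases and 10 UMI bases, and second reads were aligned with BWA (version 0.7.4.4 in the submitters' processing notes) to danRer11 transcripts, reads with several matches being left out. The deposited values are counts of distinct UMIs per gene, made by the authors and not normalized. The strand used in counting is not given in the sources used here. Totals of 21444 to 1033008 UMIs limited the precision of low genes.

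Counts were tested with edgeR 4.0.16 (quasi-likelihood test, TMM scaling, filterByExpr) in R 4.3.3, in 1 fit of 21 libraries per region for genotype, sex, their interaction and pool letter, and in 1 fit per genotype for regions, averaged over the sexes. P-values were adjusted by Benjamini-Hochberg over all genes tested (4521 in the OB, 6464 in the hypothalamus, 4438 in the Tel, 4770 in mutants and 7058 in WT fish for regions). A call needed an adjusted p of at most 0.05 and a 1.5-fold change (no fold for interaction and letter). The SE is the size of the log2 fold change over the square root of F. Alternatives were DESeq2 1.42.0, its size factors, library totals, no filter, thinned counts, limma 3.58.1 on rlog values, the pool letter as a term, replicate blocks, low-total libraries left out and each pool left out. The fits were tested on simulated data. Pool numbers were taken to pair the samples where every correlation of same-numbered pools was above 0.1. This held only for hypothalamus against Tel (lowest 0.150) and OB against hypothalamus (lowest 0.121) in WT fish. OB against Tel in WT fish had a lowest value of 0.0901 but the same mean (0.267) as OB against hypothalamus. The rule therefore does not settle which regions were paired. The main region fits held no pool block, which was run as an alternative. No libraries held identical values.

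The members, lists and tests were chosen with earlier results of these data known. Named members were those called in a genotype, sex or interaction comparison, psmd3, the 2 of lowest p per genotype comparison and per region for the letter, the 3 largest called changes per WT region comparison, the alternative beta genes with psme1 and psme2, the highest and lowest of each role group and those under 63 UMIs in all. Other members and genes were named after their values were seen. All 56 members matched a RefSeq gene (GRCz12tu), used for names and neighbours only, and 14 overlap another gene there. Sequences and promoter motifs were not analysed here.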

Additional observations from a re-analysis of the deposited data

Results flagged for a closer look

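Of 46 group values examined for a single pool far from the rest, 4 were past Dixon's 95% value, where chance flags about 1 in 20 groups. In the hypothalamus, the summed level of the proteasome genes was 7024 CPM in mutant females C1, far above the other mutant females, and 3857 CPM in WT males A2, far below the other WT males. In the same region psmd6 was 111 CPM in WT males A2, and psme2 was 66.3 CPM in mutant females A1, whose total of 78533 UMIs was among the low ones.

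The genotype difference of zfand5b differed between females and males by the interaction term, by -1.61 on the log2 scale in the hypothalamus (adjusted p = 0.00427, edgeR's quasi-likelihood test) and by -2.04 in the OB (adjusted p = 0.0179). zfand5b was lower in mutants in females, and no difference passed in males.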

How the results depend on the processing

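For each comparison the number of members called, and for genotype and sex comparisons their median log2 fold change, were recomputed under every alternative. Of these 768 values, 707 were rated as kept. A count was kept if it stayed at 0 or within 1.5 times the main count. A median was kept if it moved by no more than the spread between pools. None of these medians moved by more than the spread between pools, a wide allowance with an SD of up to 0.787 on the log2 scale (Tel mutant females). In Tel females, for example, the median of the members was 0.06 with TMM and 0.24 with library totals. The medians of the region comparisons also moved with the scaling and were not set against that spread. The use of DESeq2's size factors for region comparisons was chosen after seeing the data.

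DESeq2 called 3 members between mutant males and females in the OB, against 0, 5 for the letter in the OB, against 3, 10 for the letter in the Tel, against 5, 1 for genotype by sex in the hypothalamus, against 0, and 0 between mutant and WT females in the hypothalamus, against 1. The last count was also 0 without a filter, with thinned counts, without low-total libraries, with a replicate block and with rlog values, and 2 with library totals. With no filter 1 member was called between mutant males and females in the OB. With the letter as a term 1 was called between mutant and WT females in the Tel and 1 between mutant and WT males in the hypothalamus, where thinned counts also gave 1. Letter counts were 2 in the Tel with thinned counts, and 7 (library totals) and 6 (thinned counts) in the hypothalamus, against 13.

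Leaving out each pool in turn, the letter count ranged from 1 to 4 in the OB, from 2 to 16 in the hypothalamus and from 1 to 7 in the Tel. In the hypothalamus the counts ranged from 0 to 1 between mutant and WT females (0 without 8 of 10 pools, while psme2 was lost without 9), from 0 to 1 between mutant and WT males (1 without WT males A2 or mutant males C1) and from 0 to 1 for genotype by sex (1 without WT males A2). Hypothalamus against Tel ranged from 0 to 1 in mutants (1 without mutant females C1) and from 1 to 2 in WT fish (2 without WT females A2, WT males A1 or WT males A2). OB against Tel ranged from 15 to 22 in mutants and 13 to 14 in WT fish, and OB against hypothalamus from 14 to 18 and 12 to 15.

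psmd3 in the OB changed sign. In females (-0.02) it was 0.031 with DESeq2, 0.019 with its size factors, 0.036 with library totals, 0.14 without low-total libraries and between -0.15 and 0.14 with pools left out (above 0 without WT females B1 or C1 or mutant females B1), and in males (-0.07) 0.0056 with library totals and 0.30 with thinned counts.

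With pool code as a replicate block, OB against Tel called 20 members in mutants and 14 in WT fish, OB against hypothalamus 17 and 14, and hypothalamus against Tel 0 and 1. All genotype and sex comparisons then called 0, so that psme2 was the 1 call lost. The block changed no count of calls in a region comparison by over 1.5 times. Same-numbered pools of other comparisons had lowest correlations of 0.0901 (OB against Tel, WT), 0.0213 to 0.0351 (regions, mutants) and -0.21 to 0.0519 (genotype and sex). Under the 0.1 rule their numbers were not taken to pair the samples. In these region comparisons the mean correlations were 0.267 (OB against Tel, WT) and 0.195 to 0.238 (mutants). The rule does not show that those pools were unpaired.

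Depth limits the low genes most. At the median total a count of 0 allows 10.7 CPM, above the hypothalamus and Tel medians of psmb8a, psmb9a, psmb12 and psmb13a, so that their fold changes against these regions rest on few UMIs, and mutant pools were the shallower ones.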
